A study of Schizosaccharomyces pombe with 21 samples.

Results

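The comparison is that of fission yeast cells carrying STF6, a nonsense allele of asp1 with a stop codon at residue 386, against asp1-WT cells. The members are 3 STF6 libraries and 3 asp1-WT libraries, which are 6 of the 21 libraries of the series. Asp1 is a bifunctional enzyme in which an N-terminal kinase makes the inositol pyrophosphate IP8 and a C-terminal pyrophosphatase removes it, and the STF6 stop lies in the pyrophosphatase domain. Poly(A)+ RNA was sequenced from cultures in liquid ePMGT, a synthetic glutamate medium with thiamine, at 30 °C and an A600 of 0.5 to 0.6. Each STF6 library came from strain BS848, which is h+ with the hygMX marker at asp1, so the allele and anything else that sets this strain apart cannot be told apart. The labels give strain BS216 for asp1-WT replicate 1 and strain AS478 for asp1-WT replicates 2 and 3, whereas the study's strain list names BS216 alone, as h+ with the same marker. By that list all its strains, BS216 and BS848 among them, carry mutant alleles of leu1, ura4, his3 and ade6. AS478 is not on the list, and its mating type and marker are not given in the sources used here. The fit also held 3 libraries of STF9, another asp1 nonsense allele with a stop at residue 493, grown the same way from strain BS858 (h+, hygMX), which share the asp1-WT controls. The labels call the replicates biological and say no more, so the p-values measure a spread between libraries that may be in part technical. That spread was pooled over all libraries of the fit, STF9 included. STF9 replicates lay closer together, at a chi-square per degree of freedom of 5.49 to 8.95 between pairs. The range was 24.1 to 53.5 in asp1-WT and 16.3 to 84.6 in STF6.

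As background, IP8 acts in fission yeast as a signal that links phosphate status to 3′ processing and transcription termination. The phosphate-acquisition genes pho1, pho84 and tgp1 are held down in phosphate-rich medium by transcription of long noncoding RNAs (lncRNAs) that start upstream of them, and cells with raised IP8 terminate those lncRNAs early and express the genes. Beyond phosphate, growth on glutamate calls for amino acid, proline, arginine and pyrimidine metabolism, which fission yeast regulates by nitrogen source, and for histone, respiratory and stress genes whose levels follow growth and nutrient state. Fission yeast also restricts mating and meiosis genes to nitrogen-poor conditions, through the regulators Ste11 and Mei2.

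The 6 libraries held 25838114 to 35919903 counts at 6988 loci, of which coding loci took 98.5% to 98.7%. Levels are given as normalized counts, in which each count was scaled by the effective size of its library (TMM) to the geometric mean over the 9 libraries of the experiment. Log2 normalized counts correlated with r of 0.986 to 0.993 within groups and 0.967 to 0.974 between them over the same loci. Same-numbered libraries of the groups deviated together. The log2 ratios of replicate 3 to replicate 1 correlated with r = 0.78 between asp1-WT and STF6 over 5285 loci with a mean count of 100 or more, as a description across loci that are not independent. On the second principal component of the 9 asp1-WT, STF6 and STF9 libraries (29.8% of variance) STF6 replicate 3 lay farthest from the others. Genes of both mating types were read in asp1-WT. The P-cell genes map3, map2 and map1 had 1088 to 1189, 163 to 192 and 79.5 to 111 normalized counts. The M-cell genes mam1 and mam2 had 2021 to 2247 and 149 to 196. These levels do not give the mating type of AS478.

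In all, 1731 of 6144 tested loci (28.2%) passed an adjusted p of 0.05 between STF6 and asp1-WT in the edgeR quasi-likelihood test with Benjamini-Hochberg adjustment. Among 5006 coding loci 1296 passed (25.9%), of which 693 rose (13.8%) and 603 fell (12.0%), and among 1138 noncoding loci 328 rose (28.8%) and 107 fell (9.40%). Most of the coding change was small. Of the coding loci that rose, 99 did so by under 1.25-fold, 316 by 1.25- to 1.5-fold, 155 by 1.5- to 2-fold and 123 by 2-fold or more. Of those that fell, the corresponding numbers were 117, 282, 117 and 87. The median fold was 1.42 for coding loci that rose and 1.37 for those that fell, against 2.38 and 1.87 for noncoding loci. Under a stricter rule that also asks for a 2-fold change and a mean normalized count of 100 in the higher group, 75 coding loci rose and 75 fell (1.50% each). By the same rule 110 noncoding loci changed (9.67%), of which 79 rose (6.94%) and 31 fell (2.72%). The 3 libraries of each group did not overlap at 35.7% of tested loci, 32.9% of coding and 47.8% of noncoding loci. Among loci that passed, they did not overlap at 91.3% of those that rose and 98.5% of those that fell. Non-overlap of a called locus therefore adds little to its call.

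The counts of small changes moved with single libraries. Leaving out asp1-WT replicate 3 or STF6 replicate 2 reduced the coding loci that rose to 442 and 453, and leaving out STF6 replicate 1 or STF6 replicate 3 raised the coding loci that fell to 918 and 961. Across 12 alternative fits, 335 coding loci kept the higher call and 379 the lower call in every fit, as did 182 and 76 noncoding loci. The number of members that kept the call in all 12 fits is given with many of the gene groups, but not with all of them. Every group count is to be read beside the shares of all coding loci, 13.8% higher and 12.0% lower. Same-numbered asp1-WT and STF6 libraries deviated together, whereas not every pair of STF6 and STF9 libraries did, so a fit of STF6 and asp1-WT only with the replicate number as a block, here called the paired fit, was added after the data were seen. It gave 1027 coding loci higher and 1316 lower, and its count is given for a group where it differs by over 1.5 times. The median log2 fold change was 0.06 over all tested loci, 0.03 over coding loci and 0.31 over noncoding loci.

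**Figure D1:**
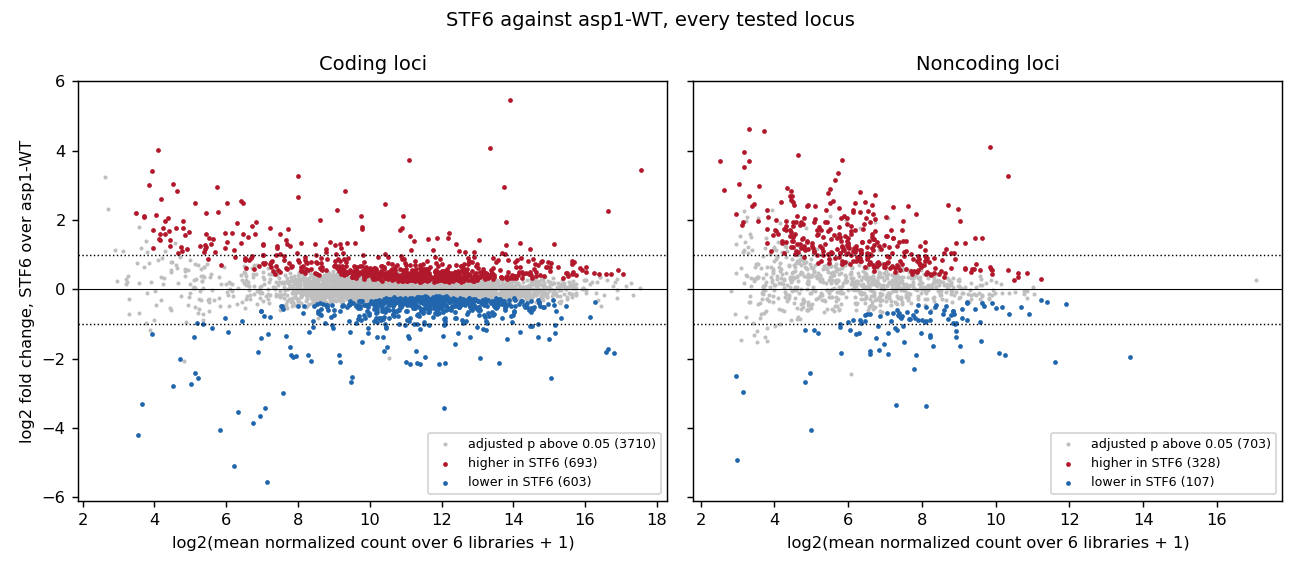
Log2 fold change of STF6 over asp1-WT (vertical axis) against log2 of the mean normalized count over the 6 libraries plus 1 (horizontal axis) for 5006 coding and 1138 noncoding loci, with red and blue points for loci past an adjusted p of 0.05 and dotted lines at 2-fold. Red and blue coding points are similar in number (693 and 603), while red noncoding points outnumber blue (328 and 107).

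The asp1 mRNA itself, which carries the stop codon, was not lower in STF6. Its normalized counts were 1738, 1760.1 and 1927 in asp1-WT and 2068, 2400.1 and 2733 in STF6, and the ranges did not overlap. The rise was 1.33-fold (log2 fold change 0.41 ± 0.10 SE, adjusted p = 0.00971), and the call was lost (log2 0.35, adjusted p = 0.0556) when STF9 was left out of the fit, but not in the paired fit (log2 0.35, adjusted p = 5.46e-05). SPNCRNA.1144, a lncRNA on the other strand of asp1, moved the opposite way. It stood at 341, 302 and 285 in asp1-WT and 182, 189 and 133 in STF6 and fell by 0.88 on the log2 scale (adjusted p = 0.00208). Of the tested neighbors, cox19, yrs1, tfa2 and SPCC1672.09 did not pass, and SPNCRNA.1143 rose 1.36-fold (adjusted p = 0.0274). Among those that fell, utp21, a ribosomal RNA processing factor, fell by 0.29 (adjusted p = 0.0145, with 0.0578 without asp1-WT replicate 2 and 0.0602 without STF6 replicate 2), and gud1, the guanine deaminase gene, fell by 0.81 on the log2 scale.

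The lncRNAs annotated as repressors of phosphate-acquisition genes did not all move the same way. In the same libraries pho1, the secreted acid phosphatase gene, rose 10.9-fold, pho84, a phosphate transporter gene, rose 4.77-fold, and tgp1, a glycerophosphodiester transporter gene, rose 44.0-fold. prt, the lncRNA that overlaps pho1, stood at 145, 121 and 90.4 in asp1-WT and 73.9, 69.9 and 74.8 in STF6 and fell 1.63-fold (adjusted p = 0.0269). This call was lost without asp1-WT replicate 1 (adjusted p = 0.133), asp1-WT replicate 2 (0.0755) or STF6 replicate 2 (0.0989). By contrast nc-tgp1, the lncRNA that overlaps tgp1, rose 1.51-fold from 553, 492 and 511 to 781, 774 and 801, without overlap of the groups (adjusted p = 0.00132). Each of these lncRNAs lies on the strand of its coding locus and shares a stretch with it, so reads from that stretch cannot be assigned by strand.

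Loci next to tgp1 fell while tgp1 rose. SPBC1271.10c, a predicted transporter gene that overlaps tgp1 on the other strand, had 4148, 4247 and 4138 in asp1-WT and 983, 961 and 896 in STF6 and fell 4.41-fold (log2 -2.14 ± 0.08 SE, adjusted p = 1.41e-09). ncRNA.1343, annotated as the divergent partner of nc-tgp1, fell 2.42-fold from 144, 197 and 225 to 77.1, 77.2 and 79.3. The tested loci that follow it along the chromosome, SPNCRNA.1344 and SPBC1271.08c, fell 2.08-fold and 2.53-fold. These 3 neighboring loci passed the 2-fold rule downward, although SPNCRNA.1344 lost the call without asp1-WT replicate 1 (adjusted p = 0.0544) or STF6 replicate 2 (0.0538).

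Genes of pyrimidine use and of nitrogen sources were among the most abundant mRNAs that fell. The adjacent genes urg1, urg2 and urg3, which are induced by uracil, and uck2, which the study lists as a uracil phosphoribosyltransferase gene, fell by 1.82, 1.72, 1.44 and 1.44 on the log2 scale. Normalized counts of urg1 were 232359, 102012 and 126694 in asp1-WT and 52823, 43003 and 34678 in STF6, so that asp1-WT replicate 1 stood well above the other asp1-WT libraries and the groups did not overlap. Without asp1-WT replicate 1, labelled BS216, urg1 still fell by 1.40 on the log2 scale (adjusted p = 0.000137). urh1, the uridine ribohydrolase gene that splits uridine into uracil and ribose, had 4636, 2723 and 3570.0 in asp1-WT and 789, 782 and 869.7 in STF6 and fell 4.48-fold (log2 -2.16 ± 0.15 SE, adjusted p = 4.84e-07).

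Genes of proline, arginine and agmatine use were also lower. put1, the proline dehydrogenase gene, went from 35100.3, 21014 and 21834 to 12485, 11052 and 9338, a fall of 2.37-fold (adjusted p = 0.000171). The proline permease gene put4 fell 2.12-fold, the arginase gene car1 2.39-fold and the ornithine transaminase gene car2 1.76-fold. SPBC8E4.03, annotated as an agmatinase, went from 27381, 17098 and 16019.7 to 5399, 4537 and 3982, a fall of 4.35-fold. In each of these 5 genes every STF6 library lay below every asp1-WT library, as at 98.7% of the coding loci called lower. The genes put1, put4, car1 and SPBC8E4.03 were chosen for description after their values were seen.

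Genes of ammonium uptake and assimilation moved in both directions. gdh1, the NADP-linked glutamate dehydrogenase gene, fell 1.77-fold and amt2, an ammonium transporter gene, 1.54-fold. Another ammonium transporter gene, amt3, rose 1.53-fold from 68.7, 83.1 and 69.4 to 117, 117 and 104 (adjusted p = 0.0275). It overlaps a lncRNA on the other strand, was chosen after its values were seen, and its call was lost without asp1-WT replicate 1 (adjusted p = 0.0878), asp1-WT replicate 3 (0.111), STF6 replicate 1 (0.0617) or STF6 replicate 2 (0.0993). gln1, the glutamine synthetase gene, fell 1.34-fold (adjusted p = 0.0281), but not without asp1-WT replicate 1 (adjusted p = 0.127) or STF6 replicate 2 (adjusted p = 0.0682). In the opposite direction uga1, the GABA transaminase gene, rose 1.53-fold and ssd2, which was read at 135, 86.9 and 109 in asp1-WT, rose 2.68-fold. Over the whole list of 29 tested nitrogen-source and uracil-regulated genes 10 fell and 5 rose (8 in the paired fit), and 8 and 4 kept these calls in all 12 alternative fits.

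Genes of several amino acid synthesis pathways fell. Of 67 tested genes 30 fell (44.8%, against 12.0% of coding loci) and 1 rose, with a median log2 fold change of -0.30. The falls numbered 50 in the paired fit and 19 without asp1-WT replicate 1, and 19 kept the call in all 12 alternative fits. Replicate 3 lay below replicate 1 for this list in both groups, with median log2 ratios of -0.31 in asp1-WT and -0.38 in STF6. The part of this replicate difference in the list's fall was not tested. ser3, a phosphoglycerate dehydrogenase gene at the entry to serine synthesis, stood at 53586, 48766 and 44373 in asp1-WT and 26783, 23846 and 20876 in STF6 and fell 2.052-fold (adjusted p = 2.6e-05). Among sulfur genes sir1, a sulfite reductase gene, fell 2.101-fold, met17, a homocysteine synthase gene, 1.87-fold and met14 1.24-fold. In the main fit met10, met16, met6 and met3 did not pass (adjusted p = 0.158, 0.618, 0.395 and 0.216). In lysine synthesis lys1, lys7, lys4 and lys3 were lower by 1.93-fold, 1.91-fold, 1.38-fold and 1.33-fold. The lysine genes lys2, lys9 and lys12 did not pass in the main fit (adjusted p = 0.965, 0.137 and 0.0831).

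The fall extended to other branches. The argininosuccinate lyase gene arg7 had 2017, 1739.8 and 1748 in asp1-WT and 867, 906 and 972 in STF6 and fell 2.01-fold. The aspartate-family genes hom3 and hom2 fell 1.57-fold and 1.50-fold, and the aromatic-pathway gene aro1 fell 1.57-fold. In each of these genes the groups did not overlap, as at 98.7% of the coding loci called lower. The list's member that rose was cys11, a cysteine synthase gene, at 1.25-fold (adjusted p = 0.0373), and that call was lost in 7 of the alternative fits, among them those without asp1-WT replicate 2 (adjusted p = 0.129), without asp1-WT replicate 3 (0.207), without STF6 replicate 1 (0.153) and without STF6 replicate 2 (0.104). SPAC56E4.03, an aromatic aminotransferase gene outside the list, fell 2.39-fold from 64021, 48318 and 43865 to 25217, 21935 and 18211. In purine and pyrimidine synthesis, 5 of 20 tested genes fell (9 in the paired fit, 3 without asp1-WT replicate 1) and 1 rose (2 in the paired fit), and prs5, a ribose-phosphate diphosphokinase gene, fell 1.52-fold.

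Transporters of amino acids fell more often than they rose. Of 17 tested transporters of amino acids and peptides 8 fell and 2 rose (median log2 fold change -0.32), and 5 of the falls kept the call in all 12 fits, with 5 falls without STF6 replicate 2. The largest fall in the list was that of aat1, at 3.91-fold. SPBC359.01, an amino acid permease gene outside the list, had 8444, 5551 and 5249 in asp1-WT and 1692, 1334 and 1294 in STF6 and fell 4.46-fold. The vacuolar transporter gene avt5 fell 1.90-fold, and per1 fell 2.056-fold. dip5, an acidic amino acid permease gene, was low and rose from 60.2, 59.9 and 69.4 to 136, 117 and 99.1 (1.85-fold).

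Every tested histone gene rose. All 11 core and variant histone genes passed the test, with log2 fold changes of 0.47 to 0.81 and a median of 0.65, and 10 kept the call in all 12 fits. hta2, an H2A gene, stood at 40692, 36810.3 and 34304 in asp1-WT and 71566, 67013 and 57961 in STF6. htb1, the H2B gene, stood at 42435, 36919.5 and 37751 in asp1-WT and 70607, 67545 and 64373 in STF6 and rose 1.73-fold (log2 0.79 ± 0.10 SE, adjusted p = 0.00011). The H3 genes hht1, hht2 and hht3 rose 1.44-fold, 1.56-fold and 1.57-fold, the H4 genes hhf1, hhf2 and hhf3 1.39-fold, 1.63-fold and 1.49-fold. The variants followed, with pht1 (H2A.Z) higher by 1.64-fold and the centromeric H3 gene cnp1 by 1.41-fold. The groups did not overlap at any of the 11 genes, as at 89.9% of the coding loci called higher. The hhf1 call was lost without asp1-WT replicate 2 (adjusted p = 0.0542), asp1-WT replicate 3 (0.0542) or STF6 replicate 2 (0.0619). Together the histone loci took 1.04%, 1.01% and 1.03% of all counts in asp1-WT and 1.61%, 1.61% and 1.59% in STF6. The gap between groups was far wider than the spread within them. The share of cells in S phase was not measured, so more histone mRNA per cell and more cells that express it cannot be told apart.

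Among mitotic cyclin and kinetochore genes 7 of 25 rose and none fell (1 in the paired fit), and 2 kept the call in all 12 fits. The number that rose was 3 without asp1-WT replicate 1 and 4 without asp1-WT replicate 2. The largest rise was that of cnp3, the CENP-C gene, which went from 364, 414 and 435 to 979, 1420.2 and 1655, 3.34-fold (log2 1.74 ± 0.19 SE, adjusted p = 1.83e-05). The groups were far apart, and STF6 replicate 1 was the lowest of the STF6 libraries. klp5, a kinesin-8 gene, rose 1.30-fold (adjusted p = 0.00222). Of 24 G1/S genes of the MBF factor 4 rose and 4 fell (16.7% each, against 13.8% and 12.0% of coding loci), with 7 and 8 in the paired fit. ssb3, the small subunit of replication protein A, rose 2.47-fold from 313, 337 and 340.5 to 862, 779.5 and 807. The MBF subunit genes res1 and rep2 fell 1.36-fold and 1.40-fold, and mik1, a mitotic inhibitor kinase gene, fell 1.68-fold. cdt2, an adaptor of replication-coupled proteolysis, rose 1.51-fold. Among 11 tested telomere genes 2 rose and none fell (4 and 2 in the paired fit), beside 13.8% and 12.0% of coding loci. ten1, of the telomere cap, rose 2.281-fold and the shelterin gene rap1 rose 1.53-fold (adjusted p = 0.0287, with 0.106 without asp1-WT replicate 1, 0.11 without asp1-WT replicate 2, 0.0516 without STF6 replicate 2 and 0.108 without STF6 replicate 3). The rises numbered 1 without asp1-WT replicate 1, asp1-WT replicate 2, STF6 replicate 2 or STF6 replicate 3 and 4 without STF6 replicate 1, and 1 gene fell without STF6 replicate 3. Of 22 genes of 3′ processing and termination 3 fell (13.6%, near the 12.0% of coding loci) and 1 rose (2 in the paired fit and without STF6 replicate 1). pcf11, a termination factor gene, had 3277, 3316 and 3166 in asp1-WT and 2066, 2036 and 1866 in STF6 and fell 1.64-fold (log2 -0.71 ± 0.08 SE, adjusted p = 1.84e-05), and sen1, an RNA helicase gene, fell 1.52-fold.

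**Figure D2:**
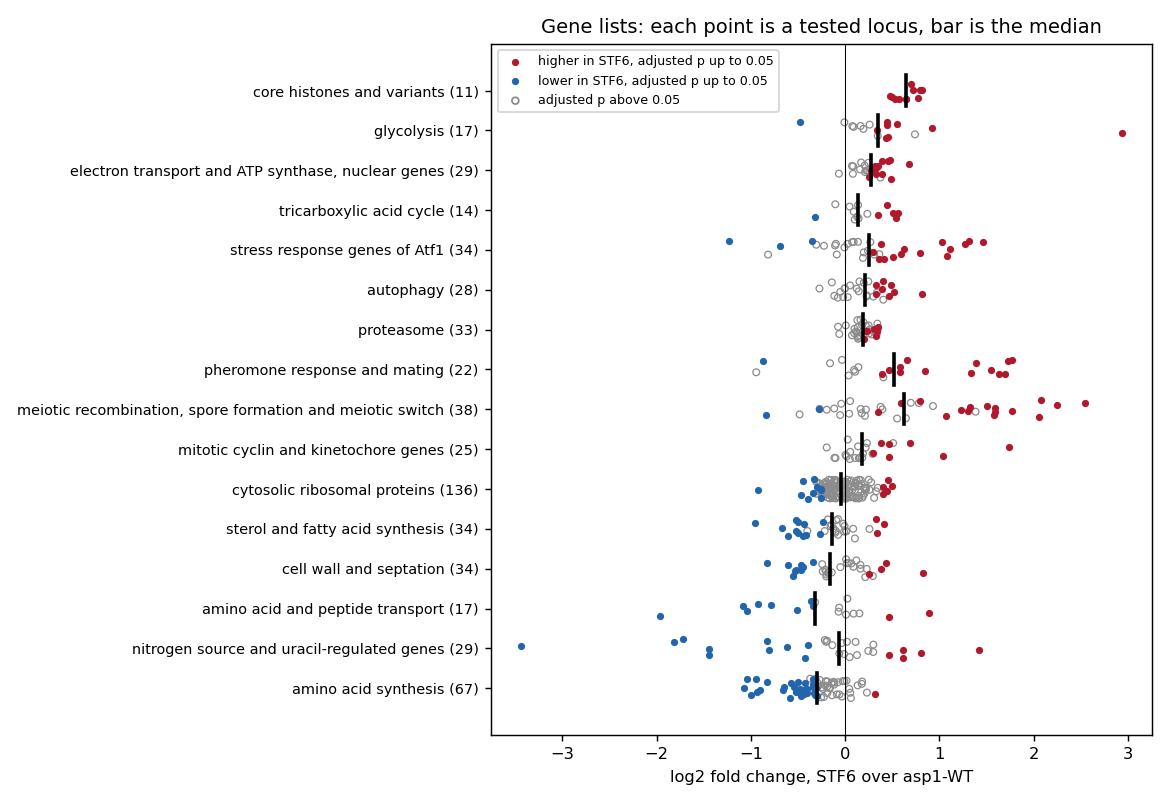
Log2 fold change of STF6 over asp1-WT (horizontal axis) for each tested locus of 16 gene lists (rows, with the number tested), where filled points passed an adjusted p of 0.05, red higher and blue lower, open points did not, and black bars are medians. The 11 histone points are all red (median 0.65), and 30 of the 67 amino acid synthesis points are blue (median -0.30).

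In glycolysis 8 of 17 tested genes rose and 1 fell (median log2 fold change 0.35), but only 2 of the rises kept the call in all 12 fits. The rises numbered 3 without asp1-WT replicate 2, asp1-WT replicate 3 or STF6 replicate 2, and 4 without STF6 replicate 1. The largest rise was that of gpd3, a glyceraldehyde-3-phosphate dehydrogenase gene with 82.3% unique windows, at 7.69-fold from 3658, 3040.1 and 2675 to 24830.5, 24750.0 and 22486 (adjusted p = 4.42e-09). adh1, the alcohol dehydrogenase gene, rose 1.46-fold from 112456, 98970.1 and 90711 to 165699, 152207 and 124634 (adjusted p = 0.00918), without overlap of the groups. tpi1, gpm1, eno101, pgi1 and pfk1 rose 1.36-fold, 1.36-fold, 1.37-fold, 1.36-fold and 1.27-fold, and each of these 5 calls was lost without asp1-WT replicate 2 (adjusted p = 0.0981, 0.0928, 0.119, 0.0789 and 0.133 in the same order). They were also lost without asp1-WT replicate 3, without STF6 replicate 1 and without STF6 replicate 2. The minor pyruvate decarboxylase gene pdc201 rose 1.89-fold and its paralog pdc202 fell 1.40-fold, from 296, 272 and 328 to 244, 201 and 196. The pdc202 call was lost without asp1-WT replicate 1, asp1-WT replicate 3 or STF6 replicate 2 (adjusted p = 0.0587, 0.063 and 0.109).

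Of 29 nuclear genes for electron transport and ATP synthase 13 rose and none fell (median 0.28), with 28 of the 29 log2 fold changes above 0 and 2 rises kept in all 12 fits. The number that rose was 4 without asp1-WT replicate 2, 3 without asp1-WT replicate 3, 6 without STF6 replicate 1 and 3 without STF6 replicate 2. cox8, a cytochrome c oxidase subunit gene, stood at 2933, 3066 and 2847 in asp1-WT and 5348, 4889.9 and 3928 in STF6 and rose 1.601-fold (adjusted p = 0.000247). qcr7 of the cytochrome bc1 complex rose 1.39-fold, and sdh3, a subunit of succinate dehydrogenase, 1.47-fold. In the tricarboxylic acid cycle list 5 of 14 rose (3 without asp1-WT replicate 2, asp1-WT replicate 3, STF6 replicate 1 or STF6 replicate 2), among them fum1 (fumarase, 1.42-fold) and kgd2 (a subunit of 2-oxoglutarate dehydrogenase, 1.45-fold). kgd1, another subunit of that complex, fell 1.25-fold (adjusted p = 0.0372), a call that was lost without asp1-WT replicate 1 (adjusted p = 0.142), asp1-WT replicate 2 (0.0748) or STF6 replicate 2 (0.0964). yhm2, a mitochondrial tricarboxylate carrier gene, and isa1, an iron-sulfur cluster assembly gene, rose 1.81-fold and 1.86-fold and did not overlap between the groups. mae2, the malic enzyme gene, rose 1.56-fold from 58813, 48610.3 and 48761 to 91253, 83119 and 69333. fbp1, the gluconeogenic fructose bisphosphatase gene, rose 2.07-fold from 192, 156 and 144 to 366, 341 and 314, and inv1, the invertase gene, fell 1.97-fold from 750.3, 479 and 488 to 326, 316 and 231.

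Of 34 tested genes of the Atf1 stress program 14 rose and 3 fell (median log2 fold change 0.25), and 10 and 2 kept the call in all 12 fits. Falls numbered 6 in the paired fit, 5 with the replicate block over all 9 libraries, 5 without asp1-WT replicate 3 and 8 without STF6 replicate 1. pbi2, an inhibitor of vacuolar proteinase B, had 2199, 1867 and 1906 in asp1-WT and 5835, 5633 and 5036 in STF6 and rose 2.76-fold (log2 1.47 ± 0.09 SE, adjusted p = 1.02e-07). obr1, a quinone oxidoreductase gene, rose 2.49-fold from 22123, 18638 and 21611 to 55597, 54269.8 and 45597. The spread within each group was small beside these differences. The peroxiredoxin-like gene pmp20 rose 2.42-fold, hsp9 2.17-fold, plr1, a pyridoxal reductase gene, 2.03-fold, and the glutathione transferase gene gst2 2.11-fold. gst1, a paralog of gst2 read at much lower counts, went the other way, from 97.3, 94.7 and 83.1 to 44.5, 33.4 and 38.8 (2.36-fold lower). srx1, the sulfiredoxin gene, fell 1.61-fold. sod2, for mitochondrial superoxide dismutase, and bcp1, for a thioredoxin peroxidase, rose 1.73-fold and 1.66-fold. Among 28 heat shock and chaperone genes 5 rose and 2 fell (8 and 5 with the replicate block over 9 libraries, 8 and 8 in the paired fit), beside 13.8% and 12.0% of coding loci. Of these, hsf1, the heat shock factor gene, rose 1.44-fold.

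Of 33 tested proteasome genes 7 rose (21.2%, against 13.8% of coding loci) and none fell (median 0.19), and 31 of 33 log2 fold changes were above 0. None kept the call in all 12 fits. The number that rose was 12 in the paired fit, 15 with the replicate block over 9 libraries, 13 without STF6 replicate 1, 4 without STF6 replicate 3, 2 without asp1-WT replicate 3 or STF6 replicate 2, and 1 without asp1-WT replicate 2. Among them rpn1301, a ubiquitin receptor gene, rose 1.27-fold and the core particle genes pup1 and pre1 rose 1.26-fold and 1.25-fold. Of 28 autophagy genes 8 rose and none fell (2 in the paired fit), and 2 kept the call, with 4 rises without asp1-WT replicate 2 or asp1-WT replicate 3 and 5 without STF6 replicate 2. atg43, the mitophagy receptor gene, had 1881, 1624 and 1789 in asp1-WT and 3285, 2988 and 3033 in STF6 and rose 1.76-fold (adjusted p = 7.94e-06). The conjugated ubiquitin-like gene atg8 rose 1.40-fold (adjusted p = 0.00777, and 0.0544 without asp1-WT replicate 3). In the vacuole the protease genes isp6 and psp3 rose 1.74-fold and 1.38-fold, beside the inhibitor gene pbi2.

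**Figure D3:**
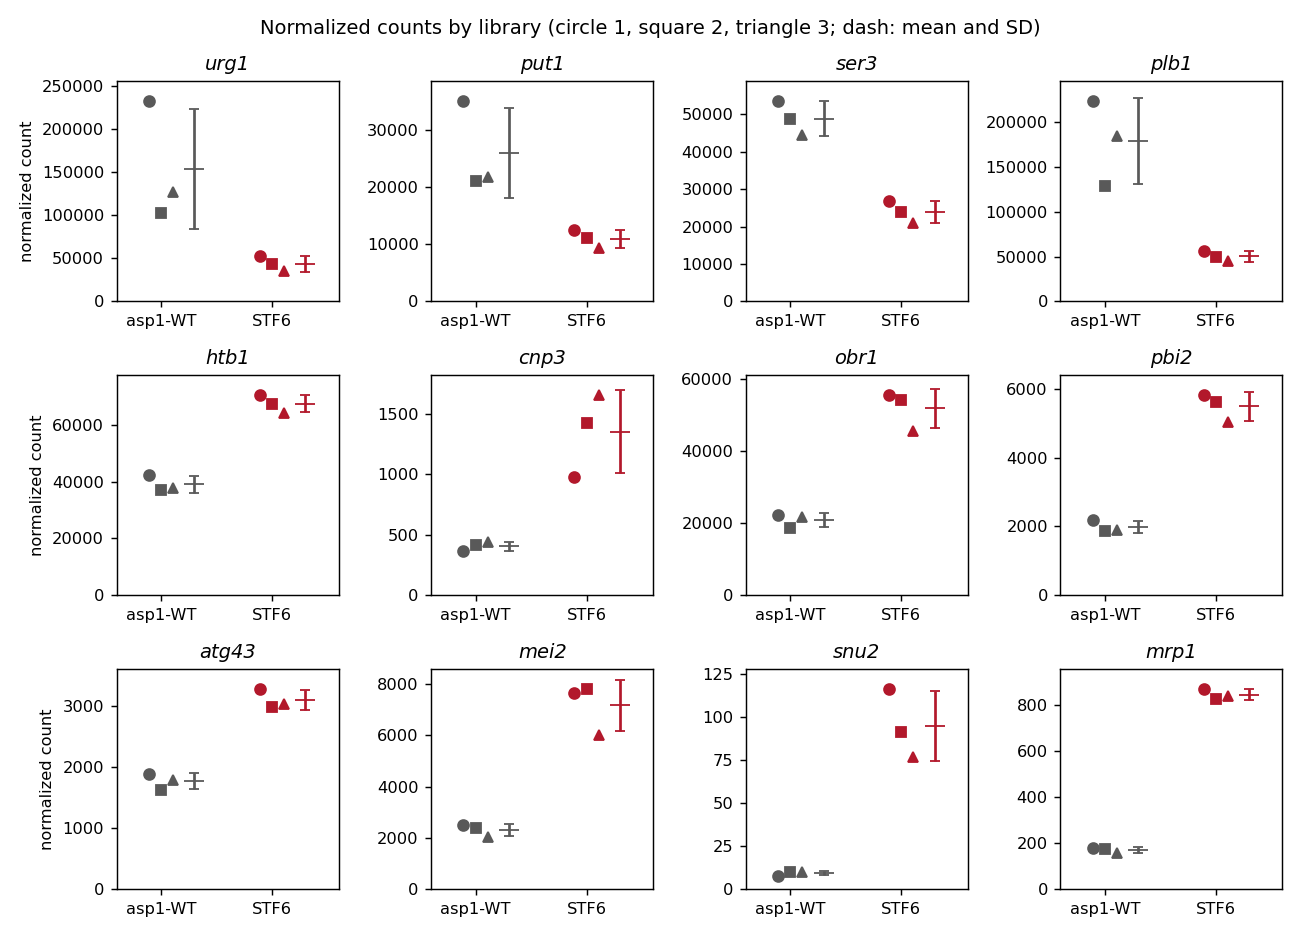
Normalized counts (vertical axes, starting at 0) of 12 genes in each library, asp1-WT in grey and STF6 in red, with circles, squares and triangles for replicates 1, 2 and 3 and a dash with bars for the mean and SD of 3 libraries. In each panel the STF6 libraries lie on one side of all asp1-WT libraries, as at most called coding loci, and asp1-WT replicate 1 is high for urg1 (232359, 102012 and 126694).

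Phospholipid enzymes moved in both directions. plb1, a phospholipase B gene and among the most abundant mRNAs of asp1-WT cells, stood at 223885, 128914 and 184913 in asp1-WT and 56145, 49980.0 and 44628 in STF6 and fell 3.57-fold (log2 -1.83 ± 0.18 SE, adjusted p = 8.29e-06). Its relative plb2 rose 1.69-fold from 26775, 23554 and 25369.6 to 46142, 43612 and 38435. Neither gene overlapped between groups, and asp1-WT replicate 2 was the lowest of its group for plb1. gde1, a glycerophosphodiester phosphodiesterase gene, and pgc1, a phosphatidylglycerol phospholipase C gene, rose 1.62-fold and 1.75-fold. eki1, a choline and ethanolamine kinase gene, fell 2.64-fold from 3390.4, 3170.5 and 2857 to 1269.7, 1238 and 1063 (adjusted p = 2.95e-07), and cho2, a phosphatidylethanolamine methyltransferase gene, fell 1.33-fold. Over the list of 22 genes 3 rose and 6 fell (12 in the paired fit, 10 without STF6 replicate 1), and 3 and 5 kept the call. Of all coding loci 13.8% rose and 12.0% fell.

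Sterol and fatty acid synthesis fell in part, with 12 of 34 genes lower and 3 higher (median log2 fold change -0.13), and 10 falls kept in all 12 fits. The rises numbered 1 without asp1-WT replicate 2 and 0 without asp1-WT replicate 3 or STF6 replicate 2. erg31, a sterol C-5 desaturase gene, fell 1.94-fold from 15222, 11484 and 12733 to 7377, 6574 and 6338. The HMG-CoA reductase gene hmg1, the fatty acid synthase gene fas1 and the acetyl-CoA carboxylase gene cut6 fell 1.53-fold, 1.44-fold and 1.42-fold. In cell wall and septation 9 of 34 genes fell (18 in the paired fit, 16 without STF6 replicate 1) and 4 rose (2 without asp1-WT replicate 2 or asp1-WT replicate 3). The glucanosyltransferase gene gas4, known from spore wall assembly, fell 1.77-fold, the daughter-separation glucanase gene eng1 1.53-fold and the septin-associated gene mid2 1.43-fold, whereas the glucosidase gene exg1 rose 1.77-fold. Of 14 genes of flocculins and their regulators 5 rose and 2 fell, and 2 of each kept the call in all 12 fits. The rises numbered 2 without STF6 replicate 2 and 3 without any of asp1-WT replicates 1, 2 and 3 or STF6 replicate 1, and the falls 4 in the paired fit and without STF6 replicate 1. The falls were those of pfl7 and of cbf12, a transcription factor gene (1.32-fold, adjusted p = 0.00593). The flocculin gene pfl7 fell 6.36-fold from 1271.4, 1294 and 1102 to 204, 191 and 181. pfl3, another flocculin gene, for which only 66.6% of stretches of read length (51 bases) occur once in the genome, so that its reads are partly uncertain, rose 2.21-fold. Its known activator mbx2, a MADS-box factor gene, rose 2.51-fold from 405, 480.1 and 442 to 1038, 1313 and 978.

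Among changes under 2-fold, the smallest p-values included those of several transporter genes. bfr1, a multidrug efflux pump gene, stood at 34830.1, 35513 and 35044 in asp1-WT and 20047, 17320.2 and 15407 in STF6 and fell 1.997-fold, just under the 2-fold limit. nhe1 fell 1.79-fold and ccc2, a copper-transporting ATPase gene, 1.69-fold. amf1 and the malate transporter family gene SPCC794.06 fell 1.88-fold and 1.91-fold, SPCC613.01 fell 1.78-fold and mam301 1.72-fold. In these 7 genes the SE of the log2 fold change was 0.08 to 0.11. Others of this kind rose. spx2, vtc2 and vtc4, SPX-domain genes of phosphate and polyphosphate homeostasis, rose 1.94-fold, 1.79-fold and 1.87-fold. ncs1, a neuronal calcium sensor homolog, rose 1.68-fold, SPBC409.08, of the spermine transporter family, 1.78-fold and mug86, an acetate transporter family gene, 1.64-fold. Of 14 zinc and copper genes 3 rose (5 without STF6 replicate 3) and 2 fell (4 in the paired fit), beside 13.8% and 12.0% of coding loci. Among them ctr4, a copper uptake gene, rose 2.02-fold from 866, 1029.8 and 822 to 2066, 1964 and 1469.9, and zrt1, the zinc importer gene, rose 1.39-fold (adjusted p = 0.00941).

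Ribosomal protein mRNAs held a similar share of counts in both groups. Of 136 tested genes 5 rose (3.68%) and 10 fell (7.35%), below the shares of all coding loci, and the median log2 fold change was -0.05. With the replicate block over 9 libraries 7 rose and 17 fell. In the paired fit 11 rose (8.09%) and 51 fell (37.5%), against 20.6% and 26.3% of coding loci tested in it, so there the share that fell was above that of all coding loci. Leaving out single libraries gave 1 (without asp1-WT replicate 3 or STF6 replicate 2) to 9 rises (without asp1-WT replicate 1 or STF6 replicate 3) and 4 (without asp1-WT replicate 2) to 25 falls (without asp1-WT replicate 3). Their summed share of counts was 14.5% ± 0.55 (SD, n = 3) in asp1-WT and 14.2% ± 0.52 in STF6. The exception in size was rpl1603, which had 2823, 2858 and 2954 in asp1-WT and 1373, 1548 and 1611 in STF6 and fell 1.90-fold (adjusted p = 1.03e-05). rpl2502 fell 1.38-fold and rps2202 rose 1.37-fold. Of 62 ribosome biogenesis factors 6 rose and 1 fell (8 and 5 with the replicate block over 9 libraries, 10 and 12 in the paired fit), and between 2 (without STF6 replicate 2) and 12 rose (without STF6 replicate 1). Elongation factor mRNAs were higher, with tef5, for the exchange factor subunit eEF1B, at 51731, 48744 and 41498 in asp1-WT and 78887, 77059 and 60535 in STF6 (1.52-fold higher, adjusted p = 0.00364). The eEF1A genes tef101, tef102 and tef103 rose 1.55-fold, 1.55-fold and 1.67-fold, but they are near-identical copies with 25.2% to 34.9% unique windows, so the division of reads among them is uncertain.

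Mating and meiosis genes were higher on balance. Of 22 tested pheromone response and mating genes 13 rose and 1 fell (3 in the paired fit, median log2 fold change 0.52), and 12 and 1 kept the call in all 12 fits. ste11, the master regulator of sexual differentiation, rose 2.63-fold, and mei2, the RNA-binding switch gene for meiosis, rose 3.10-fold from 2516, 2374 and 2043 to 7648, 7827 and 6035 (log2 1.63 ± 0.11 SE, adjusted p = 3.69e-07). rgs1, which dampens pheromone signaling, went from 919, 841 and 835 to 2859.8, 2884 and 2690.2 (3.25-fold). Both genes changed by far more than the spread of their libraries. ste4, an adaptor of the mating MAP kinase cascade, rose 2.52-fold and map1, the P-cell transcription factor gene, 3.32-fold. prm1, a cell fusion gene, fell 1.83-fold. M-cell genes were also read in these libraries, of which those from BS216 and BS848 are h+. The M-factor exporter gene mam1 had 2247, 2024 and 2021 in asp1-WT and 1492, 1429 and 1142 in STF6 and fell 1.55-fold, and the M-factor precursor gene mfm1 stood at 11.6, 12.6 and 20.1 and rose to 52.1, 48.002 and 38.8. Genes mat1-Mc and mat3-Mc were at 0 in each library, but none of their windows is unique in the genome.

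Of 38 tested genes for meiotic recombination, spore formation and the meiotic switch 16 rose and 2 fell (5 in the paired fit, median log2 fold change 0.62), and 11 and 1 kept the call. Most were read at low counts, and replicate 3 lay above replicate 1 for this list, with median log2 ratios of 0.18 in asp1-WT and 0.74 in STF6. The part of that replicate difference in the list's rise was not tested. The meiotic septin genes spn6 and spn5 rose 5.84-fold and 2.83-fold, with spn6 at 17.0, 34.8 and 22.8 in asp1-WT and 117, 137 and 178 in STF6. hop1, for a chromosome axis protein, rose 4.74-fold from 22.4, 14.5 and 19.2 to 66.3, 93.9 and 108. Groups did not overlap at either gene, which was a condition for naming spn6, although STF6 libraries themselves ranged widely. The recombination genes rec25 and rec11 rose 3.002-fold and 2.50-fold, and spo5, an RNA-binding protein gene of meiosis II, rose 4.17-fold. dmc1, the meiotic recombinase gene, had only 9.26, 0.966 and 2.74 in asp1-WT and 14.1, 25.04 and 19.8 in STF6 (4.22-fold higher, adjusted p = 0.0126), and the call was lost without asp1-WT replicate 3 (adjusted p = 0.0536) or STF6 replicate 2 (0.0559). spo3, a forespore membrane gene, fell 1.79-fold. Of 104 tested genes named mug or meu 31 rose and 14 fell, shares of 29.8% and 13.5%, against 13.8% and 12.0% of coding loci. The share that fell was near that of coding loci. The list also holds the noncoding loci meu16, which fell, and meu3 and meu19, which rose. Of all noncoding loci 28.8% rose and 9.40% fell. Only 37.9% and 38.8% of the windows of meu3 and meu19 are unique. Falls numbered 24 in the paired fit, 8 without asp1-WT replicate 1 or asp1-WT replicate 2 and 7 without STF6 replicate 2.

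Noncoding loci rose more often than coding loci, and structural RNAs were among those that rose. Of 37 tested small nucleolar RNA (snoRNA) loci 16 rose and none fell, with a median log2 fold change of 0.80. All snoRNA loci together took 0.0121% ± 0.00083 of counts in asp1-WT (SD, n = 3) and 0.0233% ± 0.0040 in STF6. snoU14, needed for 18S ribosomal RNA maturation, had 361, 368 and 353 in asp1-WT and 1119, 1047 and 879 in STF6 and rose 2.81-fold (adjusted p = 3.27e-06). The H/ACA RNAs snR30 and snR90 rose 2.79-fold and 2.52-fold, with 334, 332.3 and 312 normalized counts of snR90 in asp1-WT and 863, 808 and 799 in STF6. In each of these the STF6 libraries were closely grouped above asp1-WT. snR95, snoR38, snr79 and snoZ16 rose 3.89-fold, 4.55-fold, 4.69-fold and 2.79-fold. Other than rrk1, the structural RNAs named here and next were chosen after their values were seen.

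The RNA subunits of RNase P and RNase MRP rose as well. rrk1, the RNase P RNA that matures transfer RNA, had 114, 141 and 132 in asp1-WT and 591, 653 and 861 in STF6 and rose 5.44-fold (log2 2.44 ± 0.16 SE, adjusted p = 2.59e-07). mrp1, the RNase MRP RNA of ribosomal RNA processing, had 177, 175 and 155 in asp1-WT and 872, 829 and 838 in STF6 and rose 5.004-fold (adjusted p = 3.47e-08). The gap between groups was many times the spread within them. Of 6 tested loci with small nuclear RNA identifiers 5 rose, including the U3 snoRNAs. The U2 RNA snu2 had 7.72, 9.66 and 10.04 in asp1-WT and 116, 90.8 and 76.6 in STF6 (10.3-fold higher, adjusted p = 2.16e-06), and U1 and U5 were also read at low counts and rose 4.55-fold and 5.69-fold. U4 did not pass the test (adjusted p = 0.0774, and 0.0265 in the paired fit), and the U3 calls of snu3 and snu32 were lost without STF6 replicate 2 (adjusted p = 0.112 and 0.0916), that of snu3 also without asp1-WT replicate 2 (0.0525) or asp1-WT replicate 3 (0.122) and that of snu32 also without asp1-WT replicate 1 (0.0548). The telomerase RNA ter1 rose 1.40-fold, and the signal recognition particle RNA srp7 did not pass (adjusted p = 0.627). It had 33.2, 49.3 and 36.5 in asp1-WT and 24.98, 123 and 32.4 in STF6, so STF6 replicate 2 stood apart.

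These RNAs are mostly made without a poly(A) tail, and the libraries were poly(A)-selected. Ribosomal RNA loci took 0.00129% ± 0.00021 of counts in asp1-WT and 0.00132% ± 0.00031 in STF6. Transfer RNA loci took 0.000588% ± 0.000089 and 0.000563% ± 0.000124. These shares did not differ by more than the spread between libraries, but rested on only 258 to 419 and 123 to 187 counts per library. Only 11 of 49 ribosomal RNA and 5 of 196 transfer RNA loci passed the low-count filter. No count fell on 89 transfer RNA loci in the 9 libraries. These shares therefore cannot show how much untailed RNA each library held. Of 11 tested ribosomal RNA loci 2 rose and 1 fell, and of 5 tested transfer RNA loci 1 rose. How the selection treated untailed RNA in each library was not tested. Whether the snoRNA and small nuclear RNA reads came from tailed precursors was not tested.

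**Figure D4:**
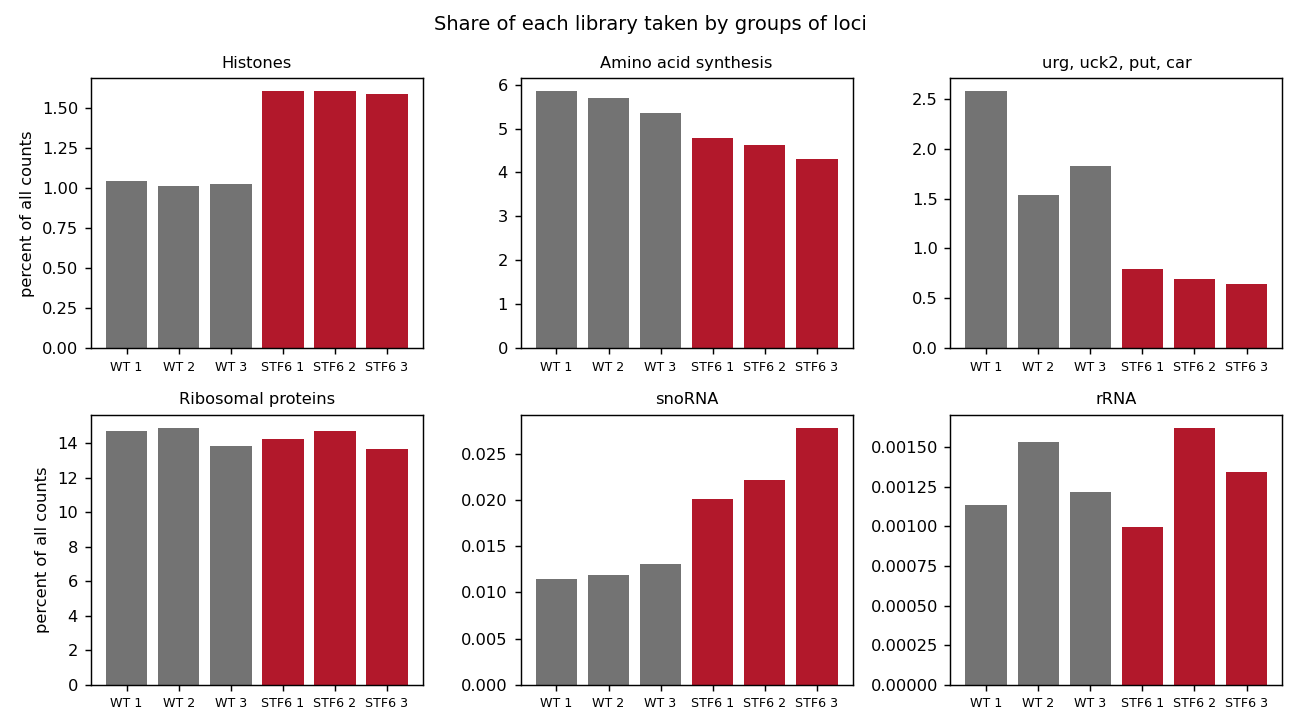
Percent of all counts (vertical axes, starting at 0) taken by 6 groups of loci in each library, asp1-WT in grey and STF6 in red. Histone loci rose from 1.01% to 1.04% in asp1-WT to 1.59% to 1.61% in STF6, snoRNA loci were higher in every STF6 library, and rRNA loci overlapped between the groups.

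Among lncRNAs 304 of 1079 rose and 106 fell. The lncRNAs that lie only antisense to a coding locus rose in 214 of 685 cases (31.2%) and fell in 67 (9.78%), with a median log2 fold change of 0.36. Those that overlap no coding locus rose in 50 of 244 cases (20.5%) and fell in 20 (8.20%), with a median of 0.18. Among lncRNAs whose higher group averaged at least 100 normalized counts 157 of 553 rose (28.4%, against 28.2% of all lncRNAs). The median log2 fold change of noncoding loci was 0.62, 0.59, 0.21 and 0.07 from the lowest to the highest quartile of mean count over the 6 libraries, and that of coding loci was 0.12, 0.04, -0.01 and -0.00. Median log2 ratios of replicate 3 to replicate 1 over noncoding loci were 0.16 in asp1-WT and 0.41 in STF6. The part of low count and of this replicate difference in the noncoding rise was not tested.

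The largest lncRNA rise at 100 or more counts was that of SPNCRNA.1557, on the other strand of the histone demethylase gene lid2. It went from 91.9, 104 and 104 to 1911, 1846 and 1429, 17.3-fold (log2 4.11 ± 0.14 SE, adjusted p = 7.51e-10), and the groups were an order of magnitude apart. The lid2 mRNA stood at 2901, 2922 and 3009.5 in asp1-WT and 2952, 2672 and 2514 in STF6 and did not pass the test (adjusted p = 0.269, and 0.0458 in the paired fit). SPNCRNA.1276, antisense to the ubiquitin ligase gene brl1, rose 9.59-fold from 225, 262 and 250.1 to 2423, 2633 and 2009, and prl43 rose 13.4-fold from 5.404, 7.73 and 10.04 to 97.8, 118 and 95.5. Non-overlap of the groups was a condition for naming these lncRNAs, so it adds no support. SPNCRNA.888, SPNCRNA.1673, SPNCRNA.1462, SPNCRNA.784, SPNCRNA.780 and SPNCRNA.1280 rose 7.06-fold, 6.56-fold, 5.71-fold, 5.64-fold, 5.35-fold and 5.25-fold.

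Of the lncRNAs that fell, SPNCRNA.1626 was the most abundant, at 22539, 17771 and 21091 in asp1-WT and 6109.6, 4672 and 5105 in STF6, a fall of 3.87-fold (adjusted p = 1.52e-07). It lies on the other strand of mbx2, which rose 2.51-fold. SPNCRNA.1690, on the other strand of cao2, a copper amine oxidase family gene, fell 3.58-fold from 1839, 1678 and 1590.1 to 543, 454 and 432. The cao2 mRNA rose 4.03-fold from 154, 149.7 and 159 to 542, 548 and 775. In both of these overlaps the lncRNA was the more abundant transcript in asp1-WT by normalized count. SPNCRNA.935, beside per1, fell 4.30-fold from 5682, 5215 and 4426 to 1482, 1125 and 962 as per1 fell, while SPNCRNA.934 on its other side rose 3.91-fold. SPNCRNA.291, SPNCRNA.1195, SPNCRNA.1297 and SPNCRNA.1255 fell 10.3-fold, 4.16-fold, 3.76-fold and 3.67-fold. SPNCRNA.863, with 45.4% unique windows and so uncertain, fell 3.69-fold.

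Antisense partners moved in opposite directions about as often as together. There were 924 pairs of a tested lncRNA and a tested coding locus on the other strand, made of 760 lncRNAs. The lncRNA was called in 378 pairs and both loci in 123, of which 42 rose together, 19 fell together, 35 had the lncRNA higher and the coding locus lower, and 27 the reverse. Over all tested loci 38.2% of noncoding and 25.9% of coding loci were called. The log2 fold changes correlated with r = -0.02 over the 924 pairs, as a description over pairs that share libraries and in part lncRNAs. Named pairs that moved apart included SPNCRNA.1061 (2.24-fold lower) with atg43 (1.76-fold higher), SPNCRNA.1180 (3.45-fold lower) with rec11 (2.50-fold higher), and SPNCRNA.1140 (2.77-fold higher) with ser3 (2.052-fold lower). SPNCRNA.1108 fell 3.35-fold from 161, 223 and 138.7 to 44.5, 63.7 and 47.8 opposite mug135, which rose 2.37-fold. Regulatory lncRNAs of sexual differentiation also appear in the annotation. nam1, a repressor of byr2, rose 1.46-fold from 655, 641 and 550.4 to 971, 941 and 789 (adjusted p = 0.00671), while byr2, of the mating MAP kinase cascade, did not pass (adjusted p = 0.371, and 0.0197 in the paired fit). rse1, a repressor of ste11, stood at 1869, 1882 and 1732 in asp1-WT and 1759.6, 1757 and 1426 in STF6 and did not pass (adjusted p = 0.266, and 0.0257 in the paired fit), whereas ste11 rose.

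How the counting treated strand is not given in the sources used here. Of 116 lncRNAs that lie wholly inside a coding locus of the other strand, the median ratio of count per base in asp1-WT, lncRNA over coding locus, was 0.066, and log2 counts per base correlated with r = -0.44 over these pairs. Counting without strand would have assigned the reads of such pairs to both or to neither. The 116 were taken from the 1079 of 1527 lncRNAs that passed the low-count filter, so these values do not settle how strand was treated. Several coding loci named here also overlap a coding locus on the other strand, among them tsp0, bcp1, srx1, yhm2, atg43, amf1, urh1, eki1, spn6, plb2, prm1, mam1, min8 and SPBC1271.10c.

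**Figure D5:**
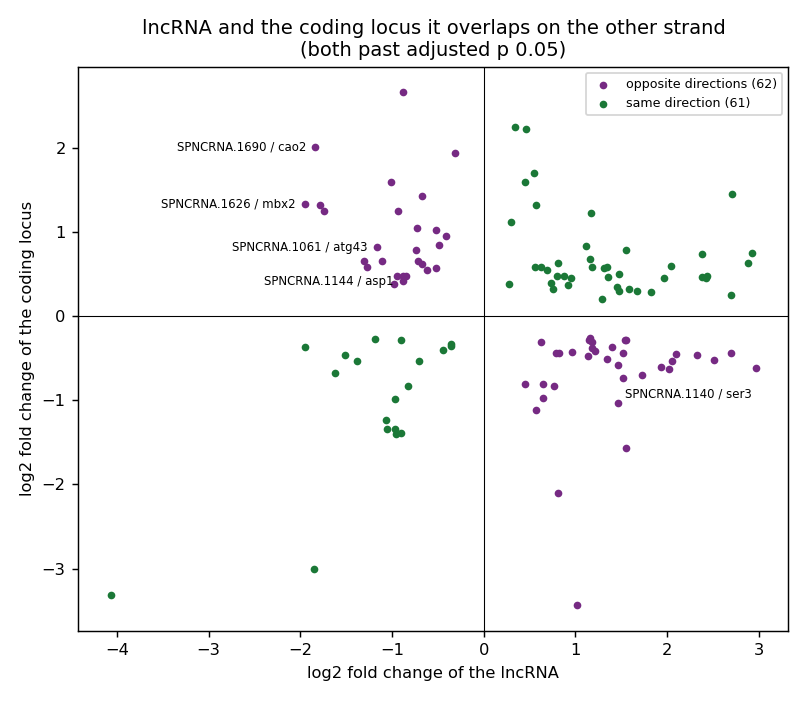
Log2 fold change of the coding locus (vertical axis) against that of the lncRNA on its other strand (horizontal axis) for the 123 pairs with both loci past an adjusted p of 0.05. Purple points moved in opposite directions (62 pairs) and green points together (61 pairs).

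Large coding rises outside these groups included several genes of low level in asp1-WT. SPAPJ695.02, of unknown function, went from 47.9, 59.9 and 37.4 to 312, 476 and 612.8 (9.66-fold), and SPBPB2B2.05, a glutamine amidotransferase family gene, from 109.6, 162 and 199.9 to 953, 1106 and 1309 (7.16-fold). Non-overlap of the groups was a condition for naming both genes. min8 and akr7, an aldo-keto reductase gene annotated as a pyridoxal reductase, rose 5.66-fold and 5.64-fold. tsp0, of the TSPO family, rose 4.31-fold from 862, 670.4 and 669 to 3411, 3279.8 and 2816 (adjusted p = 3.81e-08), and SPAC15E1.02c and SPBC19C7.04c, both of unknown function, rose 4.90-fold and 4.29-fold. Also among the 15 largest coding rises were SPBPB2B2.06c, ecl3, gpd3, mug147 and dak2, at log2 fold changes of 4.09, 3.73, 2.94, 2.66 and 2.45. The gene alr2, which belongs to the nitrogen-source list, fell by 3.43 on the log2 scale.

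A run of neighbors was among the large falls. SPBPB10D8.01, a cysteine transporter gene, the arylsulfatase gene SPBPB10D8.02c, the lncRNA SPNCRNA.1307 and SPBPB10D8.03, annotated as a pseudogene, fell 2.88-fold, 8.026-fold, 3.61-fold and 34.2-fold. SPBPB10D8.02c had 261, 327 and 442 in asp1-WT and 29.3, 39.7 and 57.7 in STF6, and SPBPB10D8.03 had 121, 155 and 152 in asp1-WT and 8.69, 1.04 and 2.70 in STF6. Non-overlap of the groups was a condition for naming both of these loci, and SPBPB10D8.03 was close to absent from STF6. Other runs of at least 3 neighbors past the 2-fold rule were found beside urg1 to urg3 and the runs at nc-tgp1 and per1 above. In one, SPCC1235.17, SPCC1235.18 and ght5 fell 3.83-fold, 3.71-fold and 5.94-fold. The study lists SPCC1235.17 and SPCC1235.18 as dubious, and ght5 has 70.7% unique windows. In another, aat1, pfl7, SPNCRNA.293 and abc3 fell 3.91-fold, 6.36-fold, 4.97-fold and 2.96-fold. Of 6125 neighboring pairs of tested loci 36 had both loci past that rule, 7 both higher, 17 both lower and 12 opposite. By the same rule 4.23% of all tested loci were called.

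Single genes also fell steeply. pan5, a dehydropantoate reductase gene, had 1038, 1217 and 1434 in asp1-WT and 149, 209 and 283 in STF6 and fell 5.74-fold. ecl1, an extender of chronological lifespan, went from 4949, 5018 and 3297 to 1156, 958 and 865 (4.46-fold lower, adjusted p = 4.03e-07). The aldehyde dehydrogenase gene atd2 and aes1, of the phenazine biosynthesis family, fell 4.30-fold and 4.34-fold, with aes1 at 8194, 6573 and 6676 in asp1-WT and 1525, 1577 and 1842 in STF6. At all 4 genes the groups did not overlap, which was a condition for naming pan5 and ecl1. SPAC186.06, annotated as an isomerase gene, had 257, 239.6 and 241 in asp1-WT and 1.09, 1.04 and 63.1 in STF6, so that STF6 replicate 3 stood apart from 2 libraries near 0. The genes aes1, atd2 and SPBC19C7.04c were chosen after their values were seen. SPAC977.18 and SPCP20C8.02c, of unknown function, fell 16.6-fold and 11.6-fold, but only 17.7% and 80.9% of their windows are unique.

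By share of all counts the largest gains in STF6 after pho1 and pho84 were those of adh1, from 0.390% ± 0.015 to 0.558% ± 0.034 (SD, n = 3), and tpi1, from 0.448% ± 0.027 to 0.5998% ± 0.021, followed by act1, obr1, tgp1, mae2, htb1 and gpm1. The rise of act1 (1.36-fold, adjusted p = 0.0233) was lost without asp1-WT replicate 2 (adjusted p = 0.0933), asp1-WT replicate 3 (0.107), STF6 replicate 1 (0.0914) or STF6 replicate 2 (0.0903). The largest losses were those of plb1, from 0.693% ± 0.16 to 0.190% ± 0.0076, then urg1, urg2, ght5 (70.7% unique windows) and car2. The 7 phosphate-acquisition genes named by the study together went from 0.311% ± 0.020 to 2.29% ± 0.13 of counts. Together urg1 to urg3, uck2, put1, put4, car1 and car2 went from 1.98% ± 0.54 to 0.710% ± 0.079. This last set holds genes chosen after their values were seen, so its summed fall adds no support. Its share was 2.58% in asp1-WT replicate 1, against 1.54% and 1.83% in asp1-WT replicates 2 and 3. The 67 amino acid synthesis loci fell from 5.64% ± 0.25 to 4.57% ± 0.25. SPAC1039.02 and sam1, also among the 10 largest losses of share, did not pass the test across loci (adjusted p = 0.065 and 0.189). Both passed in the paired fit (log2 -0.53 and -0.32, adjusted p = 7.1e-11 and 0.000112), and SPAC1039.02 also with the block over 9 libraries (0.0125).

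STF6 and STF9 differed at 5 of 6144 loci (0.0814%) in the edgeR test. Among genes named above, cnp3 stood at 1351 ± 343 (SD, n = 3) in STF6 and 1086 ± 183 in STF9, urg1 at 43501 ± 9083 and 51317 ± 3318, htb1 at 67509 ± 3117 and 70135 ± 1564, and snu2 at 94.5 ± 20.1 and 114 ± 14.95. In other genes the STF9 level was nearer to asp1-WT without passing the test against STF6. For asp1-WT, STF6 and STF9 respectively the asp1 mRNA was at 1808 ± 103, 2400.5 ± 333 and 1855 ± 124 (log2 difference of STF9 over STF6 -0.37, adjusted p = 0.211). car2 was at 92558 ± 10289.8, 52675 ± 9477 and 75666 ± 5486 in the same order, and SPNCRNA.1307 at 212 ± 25.1, 58.7 ± 7.16 and 126 ± 15.1. These examples were chosen after their values were seen, and a p that misses the threshold does not show that levels were equal. The number of loci depended on single STF6 libraries, with 2121 loci without STF6 replicate 1, 2 without STF6 replicate 2 and 9 without STF6 replicate 3. At 4 of the 5 loci, the neighbors SPCC569.01c, SPCC569.02c, SPCC569.03 and SPNCRNA.1298, the RNA was near 0 in STF6 and near the asp1-WT level in STF9. SPCC569.03, of unknown function, had 159.8, 173 and 263 in asp1-WT and 16.3, 17.7 and 7.21 in STF6 and 189.6 ± 3.17 in STF9. Between 14.2% and 80.8% of the windows of these 4 loci are unique, so their reads are partly uncertain. At the fifth locus, pfl7, STF6 had 192 ± 11.6 and STF9 344 ± 12.9, both below asp1-WT.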

How the data were processed

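Per the labels and the study's methods, the authors sequenced poly(A)+ RNA as 51-base paired-end reads, aligned them to ASM294v2 with HISAT2 2.1.0 and counted reads per locus with HTSeq 0.10.0. The values used are the raw counts per locus as deposited by the authors. The labels name a TruSeq stranded kit and the methods an NEB directional kit, and how the counting treated strand is not given in the sources used here. Columns of the authors' own comparisons, which hold fold changes and p-values, were not used.

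The 9 libraries of asp1-WT, STF6 and STF9 (3 each) were fitted together in edgeR 4.0.16 (R 4.3.3) with TMM normalization, the low-count filter filterByExpr by group, and the quasi-likelihood test, with Benjamini-Hochberg adjustment over all 6144 tested loci. The filter left 5006 of 5156 coding and 1138 of 1832 noncoding loci. The SE of a log2 fold change was taken from the fold change and its F statistic. A locus was called at an adjusted p of 0.05, and the 2-fold rule added a fold of 2 and a mean normalized count of 100 in the higher group. Totals of 25838114 to 35919903 counts make counting error small for all but the lowest loci, where replicate spread and counting error are both large. Gene names, classes and overlaps came from the RefSeq gene table of ASM294v3, used for names and order only. It matched 6836 of 6988 loci by ID, and no sequence or coordinate is printed because its build differs from that of the files. Each locus was checked for how many of its 51-base windows occur once in that genome.

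Same-numbered asp1-WT and STF6 libraries deviated together from their group means over 5276 loci (r = 0.73, 0.18 and 0.76 for replicates 1, 2 and 3), so the replicate numbers pair these libraries. The study's methods state no block, so the main fit had none and the block was an alternative. Other alternatives were DESeq2's size factors, no low-count filter, STF6 and asp1-WT only, a minimum change of 1.2-fold (glmTreat), the DESeq2 1.42.0 Wald test and leaving out each library in turn. STF6 and asp1-WT only with the block was chosen after seeing the data. The fitting code was tested on simulated counts.

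Named genes were asp1 and up to 4 tested neighbors on each side, the 15 coding and 10 noncoding loci with the largest fold in each direction under the 2-fold rule with groups that did not overlap, the 10 coding loci in each direction with the smallest p among changes under 2-fold, the 10 largest gains and losses of share, members of gene lists as examples, and the loci that differed between STF9 and STF6. Other loci named in the text, among them partners on the other strand, neighbors of named loci, structural RNAs, lncRNAs of sexual differentiation and yhm2, were chosen after their values were seen. Members and lists were chosen with earlier results of these data known. The 37 gene lists held 1009 distinct tested loci.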

Additional observations from a re-analysis of the deposited data

Results flagged for a closer look

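A total of 5 loci differed between STF9 and STF6 by the edgeR test of that difference itself (0.0814% of tested loci), with both alleles set against the same asp1-WT libraries. The log2 difference of STF9 over STF6 was 4.92 for SPCC569.01c, 3.8 for SPCC569.03, 3.81 for SPCC569.02c and 3.44 for the lncRNA SPNCRNA.1298, which are neighbors. SPCC569.01c had 220.0, 257 and 342 normalized counts in asp1-WT, 4.34, 7.30 and 5.41 in STF6 and 189, 165 and 173 in STF9. SPNCRNA.1298 had 53.3, 66.7 and 55.7 in asp1-WT, 7.60, 1.04 and 1.80 in STF6 and 30.2, 35.4 and 49.3 in STF9. In STF9 these loci were thus close to their asp1-WT levels, while all STF6 libraries, which come from strain BS848, were near 0. Whether this belongs to the STF6 allele or to that strain cannot be told apart. The fifth locus was pfl7, with a log2 difference of 0.842, where STF9 (358.9, 336 and 337.8) lay between STF6 (204, 191 and 181) and asp1-WT (1271.4, 1294 and 1102).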

How the results depend on the processing

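The counts of small coding changes depended on the fit. Against 693 coding loci higher and 603 lower, fitting STF6 and asp1-WT only gave 358 higher, the same fit with the replicate block gave 1316 coding and 175 noncoding loci lower (against 107), and asking for a change of over 1.2-fold (glmTreat) gave 313 higher and 263 lower. Leaving out single libraries gave 442 to 865 coding loci higher and 417 to 961 lower. The fit of STF6 and asp1-WT only, which leaves out the STF9 libraries, shared 69.0% of the main calls. The cause of these differences was not tested. Counts under the 2-fold rule stayed within 1.5 times under each alternative run. The replicate block alone gave 1010 coding loci higher and 819 lower, and 99.9% of main calls were also called under it. Among named loci it changed the call of SPAC1039.02, which passed with the block (adjusted p = 0.0125), and no other, and it moved 13 of 74 list counts by over 1.5 times. The block on STF6 and asp1-WT only, the libraries whose numbers pair, moved 33 list counts, 10 of rises and 23 of falls, and sam1, SPAC1039.02, snu4, lid2, rse1 and byr2 then passed. Higher loci made up 59.0% of calls in the main fit, 53.5% with DESeq2 size factors, 50.6% with STF6 and asp1-WT only and 52.8% with the DESeq2 Wald test. DESeq2's size factors moved the median log2 fold change of all loci by -0.04. The 5 loci that differed between STF9 and STF6 became 424 with the replicate block, whose numbers do not pair these groups (r = 0.13, 0.00 and 0.02), 157 with DESeq2 and 2 to 2121 when single libraries were left out. The asp1 rise was 0.35 (log2) and no longer passed with STF6 and asp1-WT only. The signal recognition particle RNA srp7, which did not pass, had log2 fold changes of -0.45 to 0.92 when single libraries were left out. Of 254 named loci 205 kept their side of the threshold in every alternative run, and of 74 list counts 24 stayed within 1.5 times in every alternative.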
